A study of Homo sapiens with 4 samples.

Results

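The HOX gene clusters are described here as they appear in 1 list of ATAC-seq peaks from T47D-MTVL cells, luminal breast cancer cells of the T47D line with 1 integrated copy of an MMTV promoter driving luciferase. A peak summit was taken as part of a cluster if it lay in 1 of 4 intervals of the hg19 genome: HOXA on chromosome 7 from 27130000 to 27250000, HOXB on chromosome 17 from 46600000 to 46810000, HOXC on chromosome 12 from 54330000 to 54450000 and HOXD on chromosome 2 from 176950000 to 177060000. Of 371521 summits in the list, 494 met this rule (0.133%), in 284 distinct regions. HOXA held 129 of them, HOXB 163, HOXC 182 and HOXD 20.

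In ATAC-seq the Tn5 transposase inserts adapters where DNA is accessible. The study has 2 samples of cells that express an shRNA against several variants of linker histone H1 (multiH1 knock-down) and 2 samples that express a random shRNA (control), all in the same T47D-MTVL background. The labels do not say whether the 2 samples of a group were separate cultures. The name of the list reads as a differential comparison with the random shRNA, but which samples went into it is not stated. Its track line names the other side with a term the labels do not use, and that this term means the multiH1 knock-down is assumed, not stated. The densities below therefore describe this list and cannot be read as the accessibility of either group or of the line in general. The list has 1 line per summit (the position of maximal signal) and no value per sample. A region (1 start and end) can hold several summits. Fold enrichments and p-values are the authors', and the number of reads over each summit was recovered from them, with a background of 2.01 reads common to all solved lines. No spread between samples can therefore be set beside the values below, the knock-down is not compared with the control, and their intervals cover counting error only.

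HOX genes encode homeodomain transcription factors that give cells their position along the body axis. They stand in 4 clusters that arose by duplication, so that genes of the same number in different clusters are paralogues, and within a cluster the low-numbered genes act towards the head and the high-numbered genes towards the tail. In cells where they are silent the clusters are classic targets of Polycomb repression, and individual clusters are known to differ in their use between tissues, mammary epithelium included.

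All 38 listed HOX genes were found in the RefSeq gene table, which is of GRCh38.p14 and not of the build of the list. It was used for the order of genes only, and no gene was given a position or a count of its own. From low to high coordinate the 10 HOXA genes run from HOXA2 to HOXA13, with SKAP2 as the next protein-coding gene outside the low end that is not a HOXA gene and EVX1 outside the high end. The 10 HOXB genes run from HOXB1 to HOXB9 and then, after an interval with PRAC1 and PRAC2 and several noncoding genes, to HOXB13, between SKAP1 and TTLL6. The 9 HOXC genes run the other way, from HOXC13 to HOXC8 and then HOXC6, HOXC5 and HOXC4, which share a start in the table and are ordered here by their ends, with the noncoding gene HOTAIR between HOXC12 and HOXC11, and lie between CALCOCO1 and SMUG1. The 9 HOXD genes run from HOXD13 to HOXD1, between EVX2, itself a homeobox gene, and MTX2.

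The RefSeq promoter table held a sequence for 20 of the 38 genes. It covered 9 of 10 HOXA genes (all but HOXA5) and 8 of 9 HOXD genes (all but HOXD9), so sequence was compared for these 2 clusters, which lie far apart in summit density. The sequences that follow are 2 pairs of paralogues: HOXA13 and HOXD13, known for their part in digit and genital development, and HOXA4 and HOXD4, the pair with the lowest value in the comparison. Each is the 300 bases (250 before and 50 after the 5′-most start of the gene) from RefSeq GRCh38.p14, 5′ to 3′ on the strand of the gene, with CG dinucleotides in capitals.
HOXA13: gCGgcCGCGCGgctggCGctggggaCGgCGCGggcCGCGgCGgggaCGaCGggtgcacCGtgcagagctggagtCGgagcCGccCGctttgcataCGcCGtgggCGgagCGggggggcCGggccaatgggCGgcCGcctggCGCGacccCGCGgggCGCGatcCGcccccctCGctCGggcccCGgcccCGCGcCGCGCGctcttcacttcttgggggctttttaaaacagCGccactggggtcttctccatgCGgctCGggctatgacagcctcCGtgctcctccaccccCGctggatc
HOXD13: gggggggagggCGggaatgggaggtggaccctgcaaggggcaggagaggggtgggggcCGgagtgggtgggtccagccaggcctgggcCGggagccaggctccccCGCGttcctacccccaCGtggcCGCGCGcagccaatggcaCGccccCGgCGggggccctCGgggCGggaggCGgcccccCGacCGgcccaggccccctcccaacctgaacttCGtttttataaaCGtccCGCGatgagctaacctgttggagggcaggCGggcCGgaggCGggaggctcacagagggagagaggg
HOXA4: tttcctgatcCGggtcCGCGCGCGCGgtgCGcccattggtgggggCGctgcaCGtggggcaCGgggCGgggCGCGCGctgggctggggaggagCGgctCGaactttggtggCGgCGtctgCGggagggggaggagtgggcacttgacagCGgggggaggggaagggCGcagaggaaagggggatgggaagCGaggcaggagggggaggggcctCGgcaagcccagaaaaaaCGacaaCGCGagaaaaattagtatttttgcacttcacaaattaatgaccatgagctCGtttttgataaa
HOXD4: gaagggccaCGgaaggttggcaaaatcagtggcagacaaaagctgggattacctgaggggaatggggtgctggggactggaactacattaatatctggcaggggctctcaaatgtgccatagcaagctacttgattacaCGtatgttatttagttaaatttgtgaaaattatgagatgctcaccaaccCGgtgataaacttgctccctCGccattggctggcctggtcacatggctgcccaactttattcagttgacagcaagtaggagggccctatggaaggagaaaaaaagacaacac

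HOXA13 held 44 CG dinucleotides and HOXD13 held 24, whereas HOXA4 held 27 and HOXD4 held 4. The ratio of observed CG to that expected from the base composition was 1.007 in HOXA13, 0.60015 in HOXD13, 1.03 in HOXA4 and 0.244 in HOXD4. Over the 9 HOXA promoters the ratio had a median of 0.906 (range 0.674 to 1.27), and over the 8 HOXD promoters a median of 0.869 (0.244 to 0.991). Promoters with a GC content of at least 50% and a ratio of at least 0.6 were 7 of 9 in HOXA and 7 of 8 in HOXD, against 46.7% of 27303 promoters in the table (1 for each gene). The exceptions were HOXA2, which patterns the hindbrain and branchial arches, and HOXA9 with a GC content under 50%, and HOXD4. The 2 clusters thus overlapped in promoter CG content, while HOXA held 5.91 times as many summits per Mb as HOXD. Whether promoter sequence bears on the summits was not tested.

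**Figure D1:**
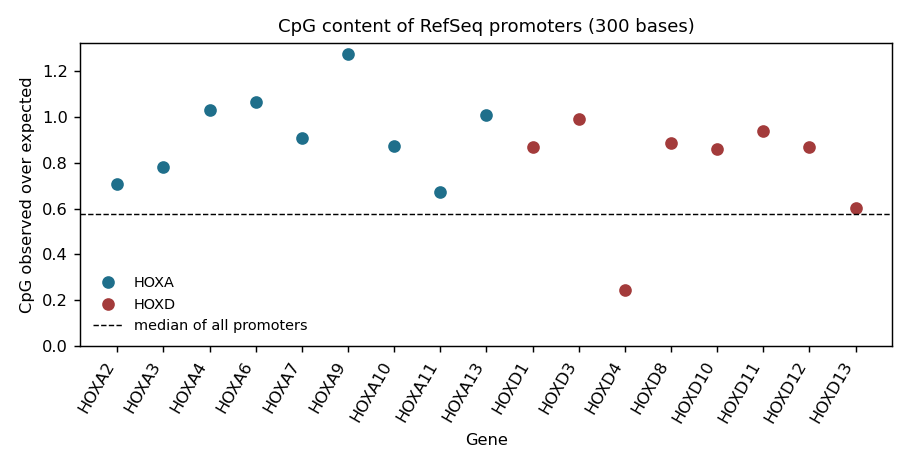
Ratio of observed to expected CG dinucleotides in the 300-base RefSeq promoter (GRCh38.p14) of each listed HOXA gene (blue) and HOXD gene (red) with a sequence, and the median of 27303 promoters, 0.577 (dashed line). All 9 HOXA promoters and 7 of the 8 HOXD promoters lie above that median, with HOXD4 below it at 0.244.

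HOXC was the most densely marked cluster, with 1517 summits per Mb. HOXA followed with 1075 and HOXB with 776, and HOXD stood far below them with 182 (181.8) per Mb. In terms of length, listed regions covered 27.3% of HOXC, 20.2% of HOXA, 14.6% of HOXB and 2.69% of HOXD. HOXC had 8.34 times the density of HOXD (95% exact interval 5.25 to 13.98) and 1.41 times that of HOXA (1.12 to 1.78), and HOXA had 1.38 times that of HOXB (1.09 to 1.76). These intervals treat summits as independent, which summits of 1 region are not. Counting each region once gave 5.50 for HOXC over HOXD (3.27 to 9.81), 1.38 for HOXC over HOXA (1.012 to 1.89) and 1.42 for HOXA over HOXB (1.03 to 1.96), so the order of the 4 clusters was the same by regions.

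Set against windows of their own length over chromosomes 1 to 22 and X, HOXA, HOXB and HOXC had counts that under 5% of windows reached, and HOXD one that more windows reached. At least as many summits as in HOXC were found in 1.72% of 24551 windows of 120 kb, and at least as many as in HOXA in 2.96%. For HOXB the share was 4.26% of 14014 windows of 210 kb. For HOXD it was 14.3% of 26782 windows of 110 kb. The median window of 110 or 120 kb held 1 summit, against 20 in HOXD.

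The comparison with the 200 kb on either side asked whether the clusters stand out from their own surroundings. Together the 4 clusters had 882 summits per Mb and their flanks 184, a ratio of 4.78 (95% exact interval 4.13 to 5.55). HOXA had 7.54 times the density of its flanks (5.48 to 10.5), HOXB 4.50 times (3.38 to 6.05) and HOXC 3.63 times (2.93 to 4.51). HOXD had 36.4 times the density of its flanks (8.83 to 321), a ratio that rests on 2 flank summits. HOXD thus had the fewest summits of the 4 clusters and the highest ratio to its flanks, but the interval of that ratio overlaps that of HOXA. Among the 50% of summits with the higher fold the HOXD ratio was 10.9 with an interval from 0.876 to 573, which includes 1. The ratios of HOXB and HOXC have overlapping intervals, and their order turned with the settings. HOXB was the lower with flanks of 100 kb (3.23 against 4.89), flanks of 500 kb (2.80 against 3.14), shortened intervals (2.83 against 3.61) and summits of 20 reads or more (3.25 against 5.73). At 20 reads or more HOXC also exceeded HOXA, at 4.375.

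The chromosomes that carry the clusters differed in the same list, and the order changes again when a cluster is set against its whole chromosome. Chromosome 17 had 493 summits per Mb, chromosome 12 had 172, chromosome 7 had 141 and chromosome 2 had 34.9. HOXC had 8.82 times the density of its chromosome, HOXA 7.61 times, HOXD 5.20 times and HOXB 1.57 times. The flanks of HOXB, at 172.5 summits per Mb, were sparser than chromosome 17 as a whole (0.350 times), and those of HOXC were 2.43 times as dense as chromosome 12. The part of the chromosome-wide level in the differences between clusters was not tested.

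**Figure D2:**
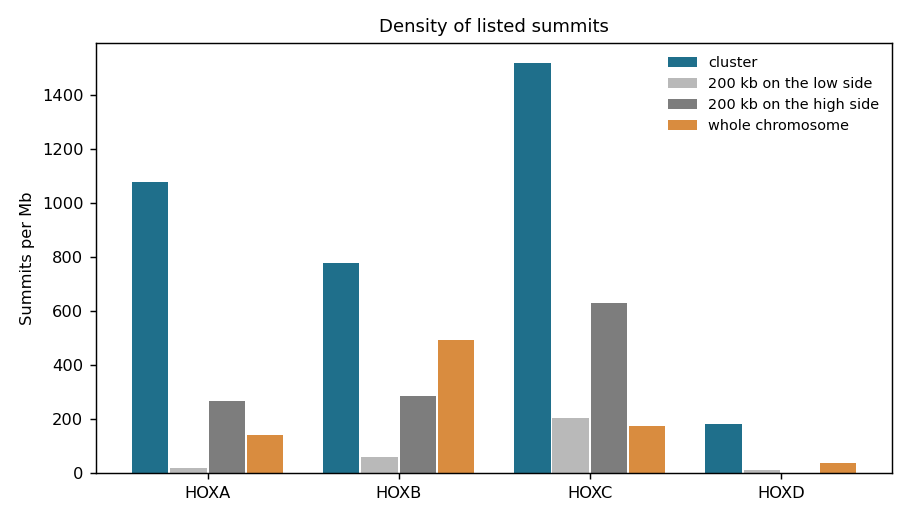
Summits per Mb (linear axis) in each HOX cluster, in the 200 kb on its low-coordinate and high-coordinate side, and over its whole chromosome. HOXC (1517) and HOXA (1075) stand above both of their 200 kb flanks and their chromosome, HOXB (776) lies nearer to chromosome 17 (493), and HOXD (182) is low but its flanks hold 2 summits on one side and 0 on the other.

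Along HOXA the summits lay mostly on the side of the high-numbered genes. In bins of 10 kb from the HOXA2 side to the HOXA13 side the counts were 8, 9, 3, 4, 5, 16, 16, 17, 11, 16, 15 and 9. The first 50 kb thus held 29 summits (580 per Mb) and the other 70 kb held 100 (1429 per Mb), a division chosen after the counts were seen. The longest stretch without a listed region ran from 27153837 to 27162911 (9075 bp) and lay in the sparser part. The highest fold enrichment of HOXA was 11.6, at a summit of 34 reads in a region from 27213165 to 27213746. Its widest region, from 27239016 to 27240447 (1432 bp), also held the most summits of any in the cluster, 7, with up to 23 reads.

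The sides of HOXA were unequal. On the SKAP2 side, beyond the HOXA2 end, 200 kb held 4 summits in 3 regions, all within 50 kb of the cluster. On the EVX1 side there were 53 summits, 49 of them within 50 kb of the cluster, and the bin from 27280000 to 27290000 alone had 25, more than any bin inside HOXA. EVX1, itself a homeobox gene, comes next in the gene order on that side, but the bin was not assigned to it. With flanks of 100 kb, where these summits weigh more, the ratio of HOXA to its flanks was 4.06, and with flanks of 500 kb it was 12.5.

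HOXB fell into a dense part, an almost empty stretch and a short dense end. From the HOXB1 side the first 13 bins of 10 kb held 3 to 21 summits each, 144 in all or 1108 per Mb. The next 6 bins, from 46730000 to 46790000, held 1 summit, of 15 reads. The last 2 bins, at the HOXB13 end, held 4 and 14. In the gene order HOXB13, a factor best known from the prostate, is the gene set apart from the rest of the cluster. Over this stretch lay the longest gap between listed regions in the 4 clusters, from 46755984 to 46796196 (40213 bp), and a second one from 46725404 to 46755787 (30384 bp). Without these 6 bins, left out after they were seen, HOXB had 1080 (1080.0) summits per Mb, near the 1075 of HOXA, and 6.26 times the density of its flanks.

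The strongest summit of HOXB had 33 reads (fold 11.3) and stood alone in a region of 157 bp from 46673897 to 46674053. It lay in the bin with the most summits of HOXB, 21. The widest region, from 46723457 to 46724978 (1522 bp), held 8 summits of 12 to 23 reads and lay just before the sparse stretch. The flank beyond HOXB1 held 12 summits and the flank beyond HOXB13 held 57, spread over all 4 steps of 50 kb (16, 20, 7 and 14 with distance). The ratio of HOXB to its flanks depended on the ends, since it was 2.83 with the interval shortened by 10 kb at either end, which moves the bins of 16 and 14 summits into the flanks.

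HOXC was marked from end to end. Every one of its 12 bins of 10 kb held at least 10 summits, from the HOXC13 side 12, 20, 16, 13, 16, 17, 26, 10, 13, 15, 12 and 12. In the genome 3.72% of 294860 windows of 10 kb held 10 or more summits. In HOXA 6 of 12 bins did, in HOXB 9 of 21 and in HOXD 0 of 11. The longest stretch of HOXC without a listed region was 6340 bp (54357498 to 54363837), against 9075 bp in HOXA, and the median spacing of its summits was 300 bp.

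HOXC also held the strongest summit of all 4 clusters, of 39 reads (fold 13.3, −log10 p 36.7), in a region of 5 summits from 54378725 to 54379829. Its widest region, of 2023 bp from 54331861 to 54333883, lay near the HOXC13 end and held 10 summits. The region from 54343445 to 54345465 held 11, the most in any region of the 4 clusters. Sparse stretches of unequal length bordered the cluster. Beyond the HOXC13 side the first 3 steps of 50 kb held 2, 3 and 2 summits, and beyond the HOXC4 side the first 50 kb held 5. Farther out the counts rose again, to 34 at 150 to 200 kb on the HOXC13 side and to 52 at 50 to 100 kb and 46 at 100 to 150 kb on the side of SMUG1, a DNA repair glycosylase gene. With flanks of 100 kb the ratio of HOXC to its flanks was 4.89, and among summits of 20 reads or more it was 5.73.

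HOXD held single weak summits and 1 stronger region. From the HOXD13 side its 11 bins of 10 kb held 2, 4, 2, 4, 1, 2, 0, 0, 1, 0 and 4 summits. The first 6 bins held 15 summits (250 per Mb) in as many regions, with 10 to 16 reads each. The next 4 bins held 1 summit, of 12 reads at 177036257. The last bin held 1 region, from 177053196 to 177053685 (490 bp), whose 4 summits had 30, 17, 12 and 11 reads. This region, near the HOXD1 end, was the only one of 17 in HOXD with several summits and the only one that reached 20 reads. The median spacing of summits was 4079 bp in HOXD, 326 bp in HOXA and 357 (356.5) bp in HOXB.

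Around HOXD almost nothing was listed. The EVX2 side had 2 summits in 200 kb, of 12 and 15 reads and both within 50 kb of the cluster, and the MTX2 side had none. Shortening the interval by 10 kb at either end, which puts the region near HOXD1 and the 2 summits at the HOXD13 end into the flanks, brought the ratio of HOXD to its flanks to 7.78.

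**Figure D3:**
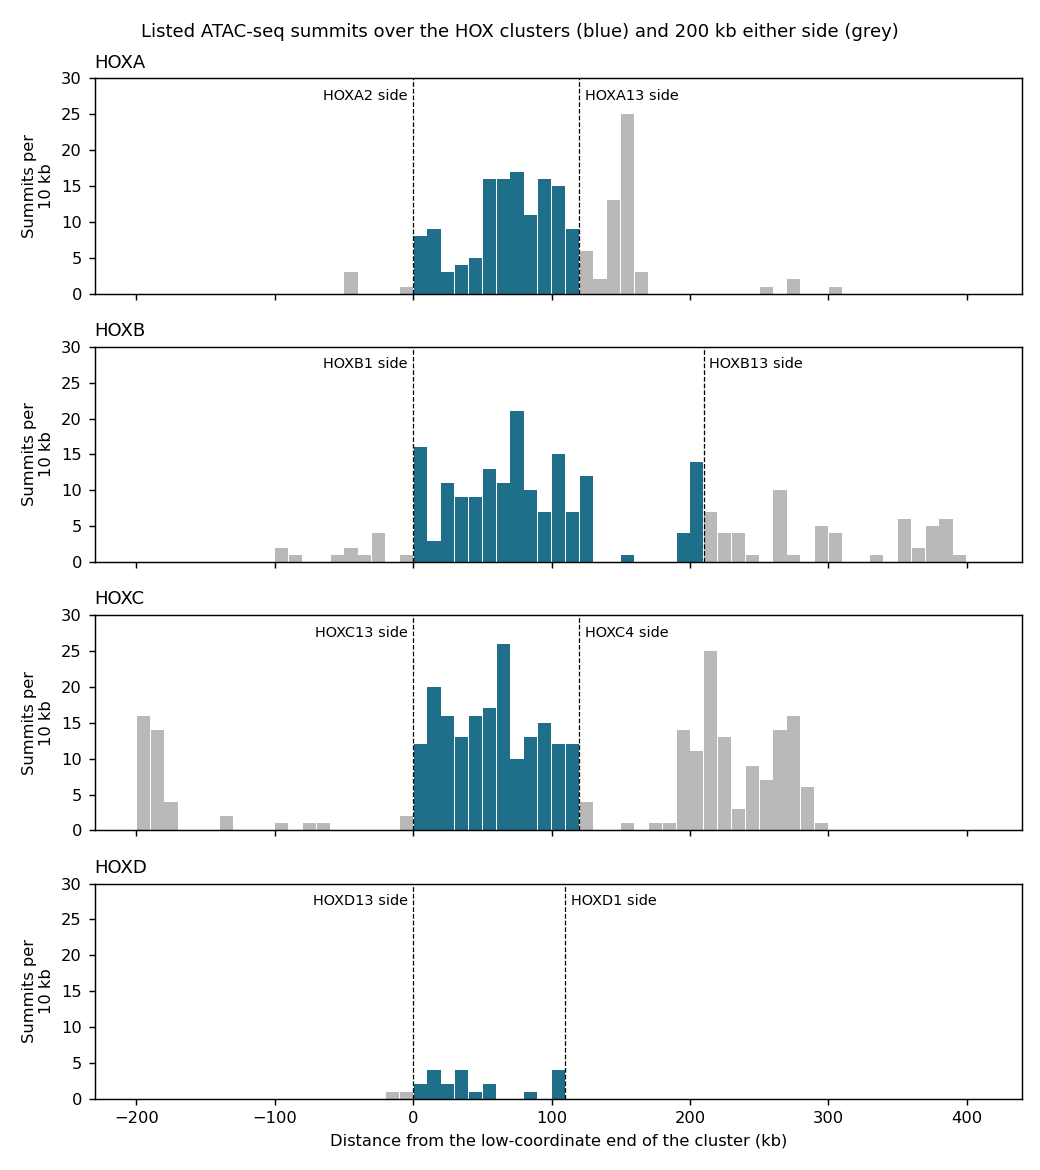
Number of listed summits in bins of 10 kb over each HOX cluster (blue) and the 200 kb on either side (grey), by distance in kb from the low-coordinate end of the cluster; dashed lines mark the ends of the interval. HOXC has at least 10 summits in each bin, HOXA is denser towards HOXA13, HOXB has 6 sparse bins before its HOXB13 end, and no HOXD bin has more than 4.

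By bins, 48 of the 56 bins of 10 kb in the 4 clusters held a summit, namely 12 of 12 in HOXA and in HOXC, 16 of 21 in HOXB and 8 of 11 in HOXD. In the flanks 56 of 160 bins did, and in the genome 21.2% of windows of 10 kb did. The median number of summits in a bin was 2 in HOXD, 9 in HOXB, 10 in HOXA and 14 in HOXC.

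The summits of the clusters were many but not strong. The median summit had 14 reads in HOXA, 15 in HOXB, 15 in HOXC and 12 in HOXD, against 15 in the whole list. At least 20 reads lay over 19.03% of HOX summits (94 of 494, 95% Wilson interval 15.8 to 22.7%) and 26.5% of the list. The share was 23.6% in HOXC (18.04 to 30.3%), 17.8% in HOXB (12.7 to 24.4%), 16.3% in HOXA (10.9 to 23.6%) and 5.00% in HOXD (0.888 to 23.6%). In the flanks it was 19.7% (15.5 to 24.6%), within the interval of the clusters. HOX summits of 50 reads or more numbered 0 of 494, which allows a share of up to 0.607%, whereas 1.44% of the list reached 50 reads. In the flanks they likewise numbered 0 of 295, which allows up to 1.02%, so their absence was not particular to the clusters. Both limits treat summits as independent, which summits of a shared region are not.

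Summits near the limit of the list, with 10 or 11 reads, were 9 of 20 in HOXD (45.0%), 20.2% in HOXA, 17.6% in HOXC and 15.3% in HOXB. They were 15.9% of the whole list and 20.7% of the flank summits. HOXA, HOXB and HOXC thus lay near those shares, and the higher share of HOXD rests on 20 summits. The low count in HOXD therefore coincided with low pileups, and a region of fewer than 10 reads is not in the list at all. A sparse stretch in HOXD, or in HOXB before HOXB13, shows only that few or no summits there reached the limit.

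**Figure D4:**
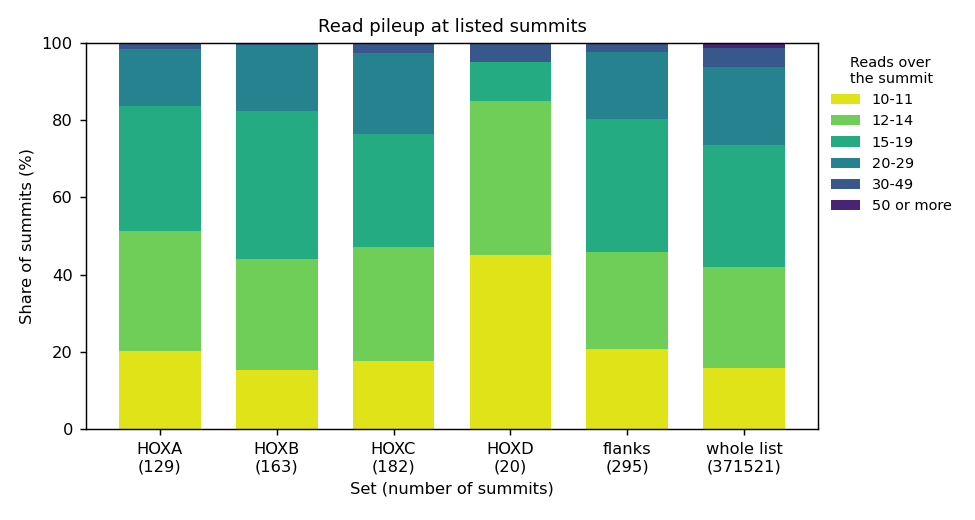
Share of summits (%) by the number of reads over the summit, for each HOX cluster, the flanks of all 4 clusters and the whole list, with the number of summits in parentheses. The share at 20 reads or more is 16.3 to 23.6% in HOXA, HOXB and HOXC and 19.7% in the flanks. No HOX summit and no flank summit reaches 50 reads. Of the 20 HOXD summits 45.0% have 10 or 11 reads, against 15.9% of the whole list.

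Several summits were found in 112 of 284 HOX regions (39.4%, 95% Wilson interval 33.9 to 45.2%), against 28.2% of all 197823 regions and 26.9% of the 186 flank regions (21.03 to 33.7%). The share was 45.9% in HOXA, 42.9% in HOXB and 37.3% in HOXC, but 5.88% (1 of 17) in HOXD. By the mean, however, a HOX region held fewer summits (1.74) than a region of the whole list (1.88), and a flank region held 1.59. The widest region of the whole list spanned 65337 bp, against 2023 bp in the clusters and 1927 bp in the flanks. How far such wide regions raise the mean of the list was not tested. The median width of a region was 280 bp in HOXA, 265 bp in HOXB, 225 bp in HOXC and 131 bp in HOXD, against 208 bp over the list. HOXC had the widest single region but a narrower median than HOXA, and it held 102 regions in its 120 kb against 74 in the same length of HOXA.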

How the data were processed

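ATAC-seq was carried out on 2 knock-down and 2 control samples of T47D-MTVL cells. The submitters' processing notes name Bowtie 1.1.2, MACS2 and the build hg19. Not given in the sources used here were caller options, duplicate removal, pooling and total reads per sample. The narrowPeak list deposited by the authors gives a fold enrichment (ratio to background), a −log10 p-value, a score (10 times −log10 p) and an offset for each summit.

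Pileups were solved from fold as (pileup + 1) / (background + 1) and p as a Poisson upper tail, over 156 distinct pairs. In the clusters each lay within 1.48e-05 of a whole number. The solver was tested on simulated data of 500 lines and recovered 100% of pileups. Density ratios carry 95% exact (Clopper-Pearson, conditional) and shares 95% Wilson intervals. Both reflect counting error alone, and amplified reads without molecular identifiers may share a molecule. Windows were tiled between the first and last listed region of chromosomes 1 to 22 and X, centromeres included.

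Named in each cluster are the region of highest fold, the widest, that with the most summits, the longest gaps and the 10 kb bins. The HOX genes, intervals and measures were chosen with earlier results of these data known. Counts per gene were planned for an hg19 table only, and the gene and promoter tables are of GRCh38.p14. Scripts ran in Python 3.11.15 with pandas 2.3.3, scipy 1.17.1 and numpy 2.4.6.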

Additional observations from a re-analysis of the deposited data

How the results depend on the processing

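For the 4 clusters together and for each cluster, the density ratio to flanks stayed above 1 under each alternative run that gave a value. For HOXD in the upper 50% by fold (10.9), however, the interval, 0.876 to 573, included 1. At 20 reads or more HOXD gave no such ratio. The remaining density ratio (8.34) divides the highest cluster density by the lowest, so by its definition it cannot fall below 1. The HOXD ratio of 36.4 was also 18.2 with flanks of 100 kb, 60.6 with flanks of 500 kb and 64.6 with the intervals lengthened. Of all values, 39 of 62 under alternatives lay within the interval of the reported value or, for the count, within 1.5 times of it. The 494 summits became, by construction, 94 at 20 reads or more, 253 in the upper 50% by fold and 284 when a region counted once. The ratio of the 4 clusters to their flanks (4.78) was 3.90 with the intervals shortened and 6.65 without HOXC. At 20 reads or more the ratio was 4.38 (4.375) for HOXA, 3.25 for HOXB and 5.73 for HOXC, and the flanks of HOXD held no such summit. With intervals shortened by 10 kb it was 2.83 for HOXB and 7.78 for HOXD. With flanks of 100 kb it was 4.06 for HOXA, 3.23 for HOXB and 4.89 for HOXC, and with flanks of 500 kb 12.5 for HOXA and 2.80 for HOXB. HOXB without its sparse bins gave 6.26, and the whole chromosome in place of the flanks gave 1.57 for HOXB, 8.82 for HOXC and 5.20 for HOXD, all chosen after seeing the data. The densest cluster over the least dense (8.34) was 39.4 at 20 reads or more, where HOXD kept 1 summit, and 29.3 in the upper 50% by fold, where it kept 3. The share at 20 reads or more (19.03%) was 37.2% in the upper 50% by fold and 23.2% when a region counted once. Beyond what the construction fixes, the causes were not tested. No paired analysis was possible because no line gives separate values for the samples, and leaving out a replicate was not possible either.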

Other observations

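Farther from the clusters, at 200 to 1000 kb from their ends, HOXA and HOXD lay in sparser surroundings than HOXB and HOXC. Around HOXD this distance held 6 summits on the EVX2 side and 0 on the MTX2 side. Around HOXA it held 66 summits on the SKAP2 side and 30 on the EVX1 side (82.5 and 37.5 per Mb). Around HOXB it held 685 and 629 (628.75) summits per Mb on the low and high side, against 776 in the cluster itself. Around HOXC it held 855 on the HOXC13 side and 336 on the HOXC4 side.

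Among the 40 neighbouring windows of the cluster's own length (20 on either side), none had as many summits as HOXA, where the highest had 49, and none as many as HOXD, where the highest had 8. For HOXB 13 of 40 had as many, and for HOXC 3 of 40 did. The densest window around HOXB had 459 summits and that around HOXC had 277. The median neighbouring window held 7 summits for HOXA, 86.5 for HOXB, 70 for HOXC and 0 for HOXD. The median window of the genome held 1 summit at 110 or 120 kb and 3 at 210 kb. The neighbouring windows were chosen after the flanks had been seen.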
